A study of Mus musculus with 8 samples.

Results

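The extracellular matrix genes described here are 9 genes that encode fibronectin (Fn1), the matricellular proteins tenascin C (Tnc), thrombospondins 1 and 2 (Thbs1, Thbs2), SPARC (Sparc), periostin (Postn) and osteopontin (Spp1), and the elastic fibre proteins fibrillin-1 (Fbn1) and elastin (Eln). They were chosen by gene symbol, and all 9 were found among the 13687 genes of the table. The study asked how primary peritoneal mesothelial cells (MCs), the cells that line the peritoneal cavity, respond to mechanical stretch and how the response depends on caveolin-1. RNAseq was performed on MCs of 2 WT mice and of 2 littermates that carry the Cav-1- genotype (strain B6.Cg-CAV1tm1mls/J, CAV1-/- below). Each animal gave 1 confluent culture kept static and 1 culture exposed to stretch for 24 h, which makes 8 libraries in 4 groups of 2 cultures: WT static, WT stretch, CAV1-/- static and CAV1-/- stretch. This number of cultures per group, taken from the labels, differs from the number of samples per condition that the study states. The cells of all groups were released from the parietal peritoneum by trypsin and grown in medium with fetal calf serum. The mutation is germline, so every cell of a culture carries it, and neither the age and sex of each mouse nor the amplitude used on mouse cells is given in the sources used here. Replicate 1 and replicate 2 of a genotype are different animals, and the static and the stretched culture with 1 number come from the same animal.

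Fibronectin is assembled by cells into fibrils through integrins and serves as a scaffold for collagen and latent growth factors. Matricellular proteins are secreted into the matrix but mostly modulate how cells attach, migrate and respond to growth factors, and many of them increase in wounds and in fibrotic tissue. Elastic fibres consist of an elastin core on fibrillin microfibrils, and lysyl oxidases and fibulins take part in their assembly. In the peritoneum, MCs that lose their epithelial features during the mesothelial to mesenchymal transition are known as a source of such matrix.

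Levels are TMM-normalized CPM (reads scaled to a common library total), and the deposited values were whole multiples of 1 read, with totals of 9777738 to 21203938 reads per library. All 4 stretched libraries were deeper than each static library, and the part of depth in the stretch comparisons was not tested. An amount of 3 reads, the floor used here, is 0.146 to 0.308 CPM. Cav1 (ENSMUSG00000007655), the targeted gene, was at 764 and 275 CPM in WT static MCs and at 570 and 247 CPM in WT stretch MCs. In CAV1-/- MCs Cav1 was at 34.5 and 18.9 CPM in static culture and at 20.0 and 12.8 CPM on stretch, so the groups did not overlap. Mesothelial markers were present in all libraries, but the sum of the 15 markers with values was 3766 to 5196 CPM in WT and 1177 to 1525 CPM in CAV1-/- MCs. All 15 had a lower mean in CAV1-/- MCs in both conditions, and none was at 0. Leukocyte markers (15 with values) summed to 4862 and 4880 CPM in the cultures of CAV1-/- replicate 1 and to between 80.8 and 473 CPM in the other 6 libraries, and 14 of the 15 had a higher mean in CAV1-/- MCs in both conditions. Fibroblast markers (9 with values) summed to 410 to 2059 CPM, with 532 and 410 CPM in CAV1-/- replicate 1 as the lowest values. Smooth muscle and pericyte markers (7) summed to 292 to 1407 CPM and endothelial markers (5) to 4.98 to 19.8 CPM. In cultures of this kind, fewer cells of a type and less RNA per cell cannot be told apart. Groups were compared by limma on log2(CPM + 1) in all 8 libraries, which gives log2 fold changes that understate the change of low genes, with Benjamini-Hochberg adjustment over 13665 genes. Genes were called at an adjusted p of 0.05. With 2 cultures against 2, an exact two-sided permutation test of a single gene cannot go below 0.333.

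The 9 genes covered a wide range of levels. Together they took 1.99 to 4.28% of the summed CPM of a library, and Fn1 alone took 0.878 to 2.28%. Fn1 had the highest CPM of all genes in all 8 libraries. Between genes, levels were compared per kb of annotated exon, where the medians over the 8 libraries were 1693 CPM per kb for Sparc, 1168 for Thbs1 and 1129 for Fn1, and the ranges of these 3 genes overlapped. Spp1 with a median of 313 CPM per kb and Tnc with 221 CPM per kb followed, and their ranges overlapped as well. The order of these genes differed between groups, since in WT static MCs the mean was 103 CPM per kb for Spp1 and 223 for Tnc, and in CAV1-/- static MCs it was 458 for Spp1 and 201 for Tnc. Lower medians of the level per kb were found for Fbn1 (56.3), Thbs2 (30.1) and Postn (21.7), again with overlapping ranges. Eln was lowest, with a median of 0.209 CPM per kb and a range from 0.0254 to 14.1 that crossed the range of Postn only through WT libraries. Every library of Sparc, from 1283 CPM per kb upwards, was above every library of Spp1, Tnc, Fbn1, Thbs2, Postn and Eln.

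**Figure D1:**
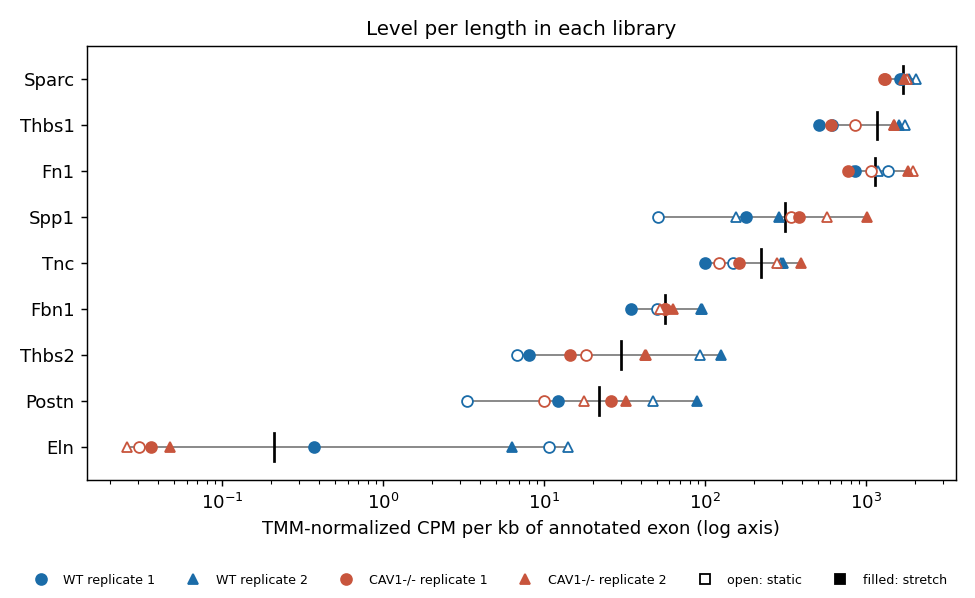
Level per length of the 9 genes, in TMM-normalized CPM per kb of annotated exon on a log axis. Each symbol is 1 library (blue WT, red CAV1-/-, circle replicate 1, triangle replicate 2, open static, filled stretch), the grey line spans the range, the black bar is the median, and all CAV1-/- libraries of Eln lie below its WT libraries while all those of Spp1 lie above.

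Fn1 (ENSMUSG00000026193, GRCm38 chromosome 1, 71585520 to 71653200, minus strand) encodes fibronectin. Its level was 15923 and 13884 CPM in WT static MCs and 9934 and 9708 CPM in WT stretch MCs. In CAV1-/- MCs it was 12498 and 22899 CPM in static culture and 9031 and 21206 CPM on stretch. The WT groups did not overlap, whereas the CAV1-/- groups did because replicate 2 was 1.83 times replicate 1 in static culture and 2.35 times on stretch. Fn1 was lower on stretch in 4 of 4 animals, by 1.60-fold and 1.43-fold in the WT animals and by 1.38-fold and 1.08-fold in the CAV1-/- animals. The log2 fold change was −0.60 in WT (SE 0.53, limma adjusted p = 1) and −0.29 in CAV1-/- MCs (SE 0.53, limma adjusted p = 1). The average over both genotypes, −0.44 with a 95% confidence interval of −1.36 to 0.47, did not pass the test either (limma adjusted p = 0.991). This fit has no block for the animal, so its SE and intervals for stretch include the differences between animals. Between genotypes the log2 fold change, CAV1-/- over WT, was 0.19 in static culture with an interval of −1.11 to 1.48 and 0.49 on stretch with an interval of −0.80 to 1.79.

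**Figure D2:**
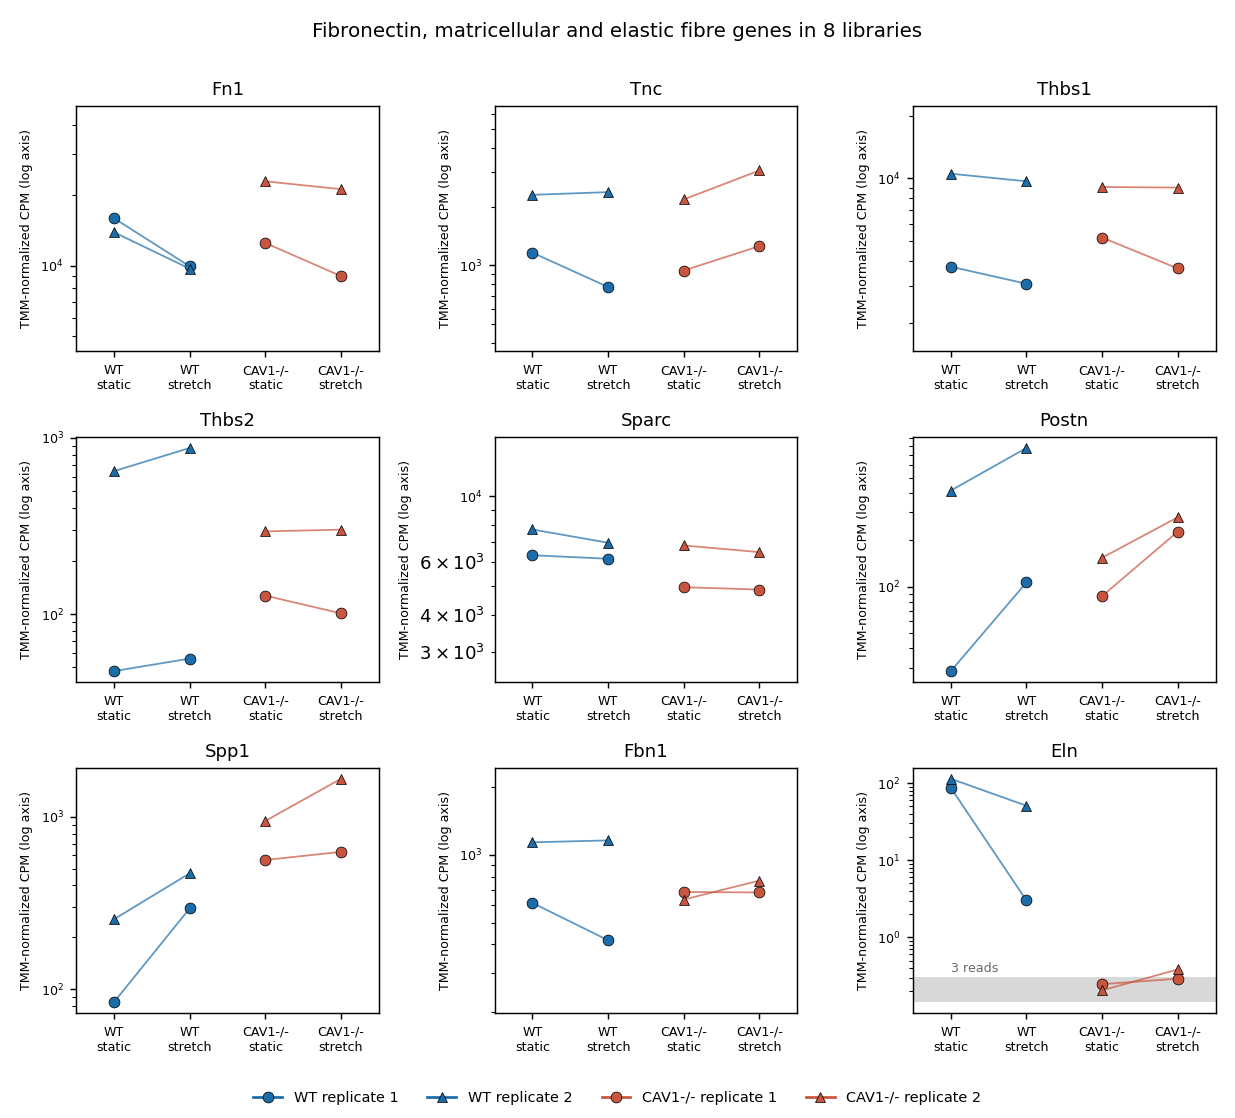
TMM-normalized CPM of the 9 genes in each library, on log axes that differ between panels. Each symbol is 1 culture, lines join the static and the stretched culture of an animal (blue WT, red CAV1-/-, circle replicate 1, triangle replicate 2), and the grey band in the Eln panel is the value of 3 reads over the libraries. Postn and Spp1 are higher on stretch along all 4 lines, Fn1, Thbs1 and Sparc are lower along all 4, and Eln in CAV1-/- MCs stays at 0.206 to 0.383 CPM.

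Tnc (ENSMUSG00000028364, chromosome 4, 63959785 to 64047015, minus strand) encodes tenascin C, a hexameric glycoprotein that is induced in wounds. Its level was 1161 and 2301 CPM in WT static, 774 and 2376 CPM in WT stretch, 940 and 2178 CPM in CAV1-/- static and 1255 and 3068 CPM in CAV1-/- stretch MCs. Replicate 2 was above replicate 1 in all 4 groups, by 1.98 to 3.07 times, and all groups overlapped. On stretch Tnc was higher in both CAV1-/- animals, by 1.34 and 1.41 times, and lower in WT replicate 1, where the ratio was 0.667, while WT replicate 2 had a ratio of 1.03. The difference of the stretch responses (genotype by stretch interaction) was 0.72 on the log2 scale (SE 1.07, limma adjusted p = 1).

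Thbs1 (ENSMUSG00000040152, chromosome 2, 118111876 to 118127133, plus strand) encodes thrombospondin 1, which is known to activate latent TGF-β and to bind CD36 and CD47. It was at 3734 and 10533 CPM in WT static, 3088 and 9675 CPM in WT stretch, 5170 and 9080 CPM in CAV1-/- static and 3663 and 9022 CPM in CAV1-/- stretch MCs. The level differed more between animals than between conditions, since replicate 2 was 1.76 to 3.13 times replicate 1 in each group. Thbs1 was lower on stretch in 4 of 4 animals, but only by 1.01-fold in CAV1-/- replicate 2 and by up to 1.41-fold in CAV1-/- replicate 1. The average log2 fold change was −0.23 (SE 0.57, limma adjusted p = 0.999).

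Thbs2 (ENSMUSG00000023885, chromosome 17, 14665500 to 14694235, minus strand) encodes thrombospondin 2, a related protein that takes part in collagen fibril organization. It was at 47.6 and 647 CPM in WT static, 56.0 and 875 CPM in WT stretch, 127 and 294 CPM in CAV1-/- static and 101 and 301 CPM in CAV1-/- stretch MCs. The WT animals differed by 13.6-fold in static culture and by 15.6-fold on stretch, and both CAV1-/- animals lay between them. The log2 fold change, CAV1-/- over WT, was 0.13 in static culture (SE 1.65, limma adjusted p = 0.997) with a 95% confidence interval from −3.90 to 4.16, so that a large difference in either direction could not have been detected. Fibroblast markers were also higher in replicate 2 than in replicate 1 of each group (2059 against 1186 CPM in WT static and 1942 against 532 CPM in CAV1-/- static MCs for the sum), and their part in the level of Thbs2 was not tested.

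Sparc (ENSMUSG00000018593, chromosome 11, 55394500 to 55423183, minus strand) encodes SPARC, a collagen-binding glycoprotein also called osteonectin. It was the least variable of the 9 genes, with 6337 and 7732 CPM in WT static, 6166 and 6978 CPM in WT stretch, 4948 and 6835 CPM in CAV1-/- static and 4859 and 6490 CPM in CAV1-/- stretch MCs. All groups overlapped. On stretch it was lower in 4 of 4 animals, by 1.02-fold to 1.11-fold, and the average log2 fold change was −0.072 (SE 0.22, limma adjusted p = 0.999). The 95% confidence interval of that average ran from −0.60 to 0.45, in the fit without a block, so it includes the differences between animals.

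Postn (ENSMUSG00000027750, chromosome 3, 54361109 to 54391037, plus strand) and Spp1 (ENSMUSG00000029304, chromosome 5, 104435118 to 104441050, plus strand) were the 2 genes of the 9 that were higher on stretch in every animal. Their promoters are therefore shown as the 250 bases before the start site in RefSeq (GRCm38.p6), on the strand of the gene, at chr3:54360857-54361106 for Postn and chr5:104434861-104435110 for Spp1.
Postn: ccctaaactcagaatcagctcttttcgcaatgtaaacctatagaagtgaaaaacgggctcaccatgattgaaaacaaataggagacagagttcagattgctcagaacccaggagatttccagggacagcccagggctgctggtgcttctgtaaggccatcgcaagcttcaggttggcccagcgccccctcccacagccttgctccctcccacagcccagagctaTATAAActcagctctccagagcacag
Spp1: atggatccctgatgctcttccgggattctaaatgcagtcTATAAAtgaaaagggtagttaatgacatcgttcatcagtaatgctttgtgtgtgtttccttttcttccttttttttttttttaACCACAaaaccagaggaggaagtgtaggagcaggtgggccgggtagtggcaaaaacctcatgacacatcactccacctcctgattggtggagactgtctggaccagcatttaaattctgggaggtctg
Capitals mark matches to the motifs searched on both strands, which were TATAAA (the TATA box), GGAATG (TEAD), TGACTCA (AP-1) and TGTGGT (RUNX). The Postn window holds TATAAA 26 to 21 bases before the start. The Spp1 window holds TATAAA 211 to 206 bases before the start and, on the minus strand, TGTGGT at 128 to 123, printed as ACCACA. None of these matches overlap, and the other motifs have no match in these windows. Among 32851 promoter windows of the same length, 12.4% hold the TATA box letters, 12.6% those of TEAD, 4.46% those of AP-1 and 14.0% those of RUNX. RefSeq windows were given for 6 of the 9 genes (also Tnc, Thbs2, Sparc and Fbn1), and TATAAA was found in 4 of the 6, with Tnc at 126 to 121 and Thbs2 at the same distance on the minus strand. The windows of Sparc and Fbn1, which hold no match, lie 3103 and 1555 bases from the gene start in GENCODE and overlap exons of these genes, so they are not upstream of the gene by that annotation. A match of letters is a description of the window and not a bound site.

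Postn encodes periostin, a TGF-β-induced protein that binds integrins and promotes collagen crosslinking. Its level was 28.6 and 414 CPM in WT static, 106 and 777 CPM in WT stretch, 86.8 and 153 CPM in CAV1-/- static and 225 and 278 CPM in CAV1-/- stretch MCs. Within each animal the stretched culture was higher, by 3.71 and 1.88 times in WT and by 2.60 and 1.82 times in CAV1-/- MCs. The CAV1-/- groups did not overlap, whereas the WT groups did, because the WT animals differed by 14.5-fold in static culture and by 7.32-fold on stretch. The average log2 fold change was 1.25 (SE 0.98) and was not called (limma adjusted p = 0.991). With the animal as a block the same log2 fold change of 1.25 was called (limma adjusted p = 0.0327), and in that fit 201 of 13665 genes (1.47%) were called against 0 without the block. Over 21 alternative settings the adjusted p ran from 0.0327 to 0.9999. Of all genes tested, 14.5% were higher on stretch in all 4 animals. The interaction was −0.27 (SE 1.96, limma adjusted p = 1).

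Spp1 encodes osteopontin, a phosphorylated ligand of integrins and CD44 that is secreted by many cells, macrophages among them. Its level was 84.2 and 255 CPM in WT static and 294 and 470 CPM in WT stretch MCs. In CAV1-/- MCs it was 562 and 947 CPM in static culture and 626 and 1665 CPM on stretch. Each CAV1-/- culture was above every WT culture, including the stretched ones, and the WT groups did not overlap. The log2 fold change, CAV1-/- over WT, was 2.31 in static culture (SE 0.68, limma adjusted p = 0.400) and 1.45 on stretch (SE 0.68, limma adjusted p = 0.871), and neither passed the test. DESeq2 on the recovered reads called the static difference (2.18, DESeq2 adjusted p = 0.0303), among 2.26% of all genes, and over 22 alternative settings the adjusted p ran from 0.0251 to 0.990. Stretch was followed by 3.50 and 1.85 times more Spp1 in the WT animals and by 1.11 and 1.76 times more in the CAV1-/- animals. The average log2 fold change was 0.91 (SE 0.48, limma adjusted p = 0.984) in the fit without a block, whose SE includes the differences between animals. With the animal as a block the same average missed the threshold (limma adjusted p = 0.061). The interaction was −0.85 (SE 0.96, limma adjusted p = 1). Leukocyte markers were highest in CAV1-/- replicate 1, at 4862 and 4880 CPM, and Spp1 was higher in CAV1-/- replicate 2, where the sum of these markers was 309 and 341 CPM. Without both cultures of CAV1-/- replicate 1 the log2 fold change of Spp1 was 2.68 in static culture and 2.16 on stretch, and without both cultures of CAV1-/- replicate 2 it was 1.93 and 0.75. In both conditions 14 of the 15 leukocyte markers had a higher mean in CAV1-/- MCs, as Spp1 did. Their sum in CAV1-/- replicate 2 was higher than in WT replicate 2 (80.8 and 82.9 CPM) but lower than in WT replicate 1 (455 and 473 CPM). The part of leukocytes in the level of Spp1 was not tested.

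**Figure D3:**
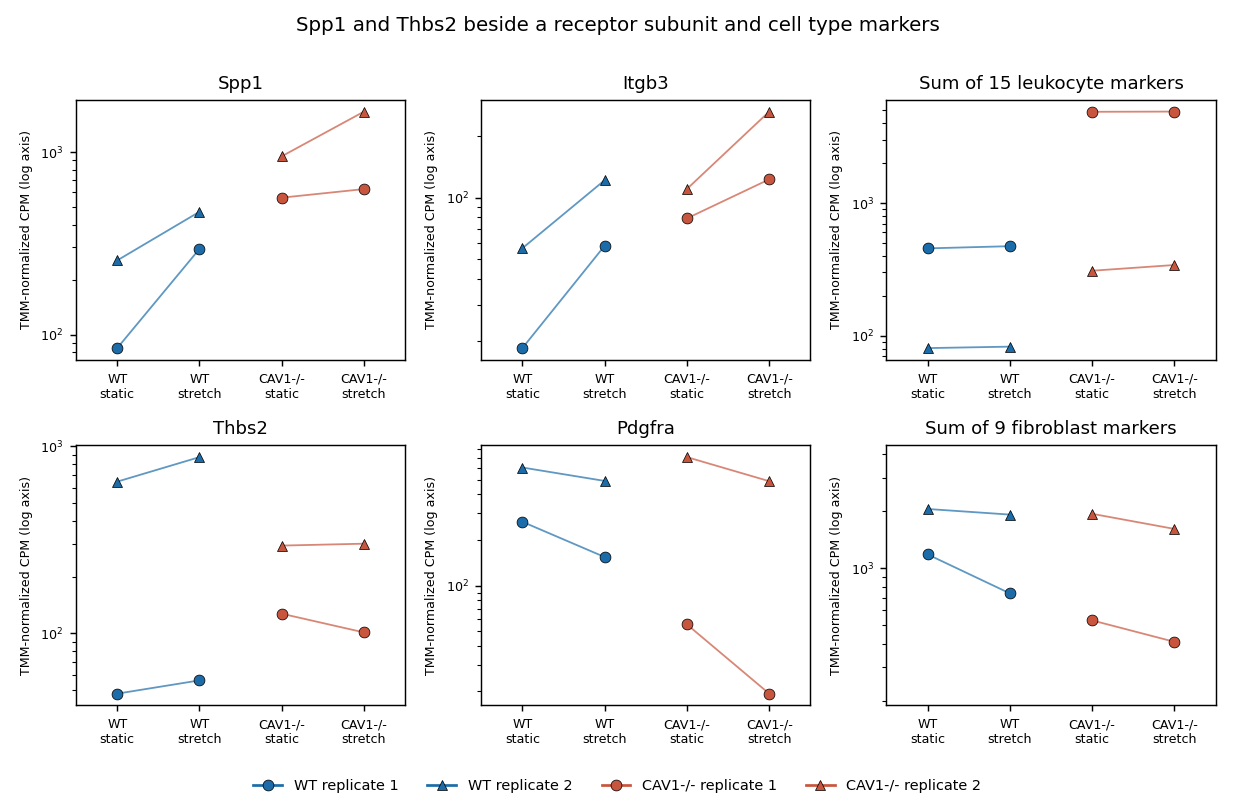
TMM-normalized CPM per library, on log axes, of Spp1, of Itgb3 (a subunit of an osteopontin-binding integrin) and of the sum of 15 leukocyte markers in the upper row, and of Thbs2, Pdgfra (a fibroblast marker) and the sum of 9 fibroblast markers in the lower row. Symbols and lines are as in the plot of the 9 genes by library. Leukocyte markers peak in CAV1-/- replicate 1 (4862 and 4880 CPM) and Spp1 in CAV1-/- replicate 2 (947 and 1665 CPM), the part of leukocytes in Spp1 was not tested, and Thbs2 and the fibroblast sum are higher in replicate 2 of each group.

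Fbn1 (ENSMUSG00000027204, chromosome 2, 125300594 to 125507993, minus strand) encodes fibrillin-1, the main microfibril protein, which also binds latent TGF-β complexes. It was at 612 and 1137 CPM in WT static, 417 and 1159 CPM in WT stretch, 684 and 633 CPM in CAV1-/- static and 681 and 768 CPM in CAV1-/- stretch MCs. The CAV1-/- values lay between those of the WT animals in both conditions. The average log2 fold change on stretch was −0.062 (SE 0.36, limma adjusted p = 0.999), with 2 animals up and 2 down. The library kit does not mark strand, and 20.1% of the exonic bases of Fbn1 overlap Gm9913 on the other strand, so reads of both cannot be told apart there. A transcript to be experimentally checked, by its annotation, on the same strand (Gm42793) overlaps 18.8% of the exonic bases of Spp1, and antisense or other opposite-strand transcripts overlap 2.26 to 3.42% of those of Fn1, Tnc, Thbs1 and Eln.

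Eln (ENSMUSG00000029675, chromosome 5, 134702593 to 134747323, minus strand) encodes tropoelastin, the precursor of elastin. It was at 86.8 and 114 CPM in WT static MCs, from 1241 and 1410 reads, and at 3.01 and 50.9 CPM in WT stretch MCs, from 61 and 826 reads. In CAV1-/- MCs only 3 and 2 reads were found in static culture and 6 and 7 reads on stretch, which is 0.247, 0.206, 0.291 and 0.383 CPM. Every WT culture was above every CAV1-/- culture. From the summed reads, the WT level was 434 times the CAV1-/- level in static culture (95% interval 186 to 1339) and 72.7 times on stretch (42.3 to 137), where these intervals cover counting error only. The value on stretch rests mostly on WT replicate 2, which gave 826 of the 887 WT reads, and the ratio of the same-numbered cultures was 10.3 (4.48 to 29.3) for replicate 1 and 133 (64.2 to 331) for replicate 2. On the log2(CPM + 1) scale the fold change, CAV1-/- over WT, was −6.36 in static culture (SE 1.07, limma adjusted p = 0.122) and −3.43 on stretch (SE 1.07, limma adjusted p = 0.585), and neither was called. DESeq2, which called 2.26% of all genes in static culture and 1.74% on stretch, called both (DESeq2 adjusted p = 8.55e-11 and 9.27e-07), whereas the quasi-likelihood test of edgeR did not (edgeR adjusted p = 0.194 in static culture). The limma test takes its spread from all 4 groups, and the WT stretch cultures of Eln differed widely. Without WT stretch replicate 1 or without WT stretch replicate 2, neither of which is in the static comparison, the static log2 fold change stayed at −6.36. Only the shared spread changed there. On stretch the log2 fold change was −5.28 without WT stretch replicate 1 and −1.585 without WT stretch replicate 2. Over 22 alternative settings the adjusted p of the static difference ran from 8.55e-11 to 0.662, that of the difference on stretch from 9.27e-07 to 0.9998, and all 22 had the same direction.

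In the WT animals Eln was lower on stretch, by 28.9-fold in replicate 1 and by 2.24-fold in replicate 2. The log2 fold change was −2.80 (SE 1.07, limma adjusted p = 1). In CAV1-/- MCs both animals had slightly higher values on stretch, but with 5 reads in static culture and 13 on stretch the ratio was 1.46 with a counting interval of 0.489 to 5.24, so no change was detectable at this depth. The interaction was 2.92 (SE 1.52, limma adjusted p = 1), and since the CAV1-/- values are close to the floor and could not have been much lower, it mostly restates the WT difference. Of the 9 fibroblast markers, 7 had a lower mean in CAV1-/- than in WT MCs in static culture and 8 on stretch. Their sum in static culture was 1186 and 2059 CPM in WT and 532 and 1942 CPM in CAV1-/- MCs, and on stretch it was 739 and 1923 CPM in WT and 410 and 1616 CPM in CAV1-/- MCs. The mesothelial sum was lower in all CAV1-/- cultures, as Eln was. Of the 7 smooth muscle and pericyte markers, 6 had a higher mean in CAV1-/- MCs in both conditions, unlike Eln. Their sum in static culture was 742 and 292 CPM in WT and 1407 and 485 CPM in CAV1-/- MCs. The part of any of these cell types in the level of Eln was not tested.

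Across the 9 genes, no gene was called for stretch in WT MCs, where limma called 0 of 13665 genes (0%), edgeR 0 and DESeq2 3, and 310 genes (2.27%) had an unadjusted p under 0.05. At that unadjusted level 1 of the 9 genes, Eln, differed. The groups did not overlap for 3 of the 9 genes, with Spp1 higher and Fn1 and Eln lower. This held for 31.1% of all genes, of which 13.9% were higher and 17.2% lower. In CAV1-/- MCs no gene of the 9 was called either (limma 0 of 13665 genes, 0%, edgeR 0, DESeq2 7, limma with the animal as a block 1, and 286, or 2.09%, at an unadjusted p under 0.05, with none of the 9 among them). Postn and Eln were higher on stretch without overlap, against 24.3% of all genes that did not overlap and 12.4% that were higher, and the Eln values there were close to the floor. Over all 4 animals, 2 of the 9 genes were higher on stretch in each animal (14.5% of all genes) and 3 of the 9 were lower in each animal (16.9% of all genes). With 4 animals an exact sign-flip test cannot go below 0.125. The median log2 fold change of the 9 genes was −0.20 in WT and 0.12 in CAV1-/- MCs, against −0.017 and −1.93e-05 for all genes. None of the 9 genes was called in the interaction (limma 0 of 13665 genes, 0%, edgeR 0, DESeq2 0, and 66, or 0.483%, at an unadjusted p under 0.05, with none of the 9 among them). For the average over both genotypes limma without a block called 0 genes (0%), edgeR 0 and DESeq2 39, and 647 genes (4.73%) had an unadjusted p under 0.05, with none of the 9 among them.

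**Figure D4:**
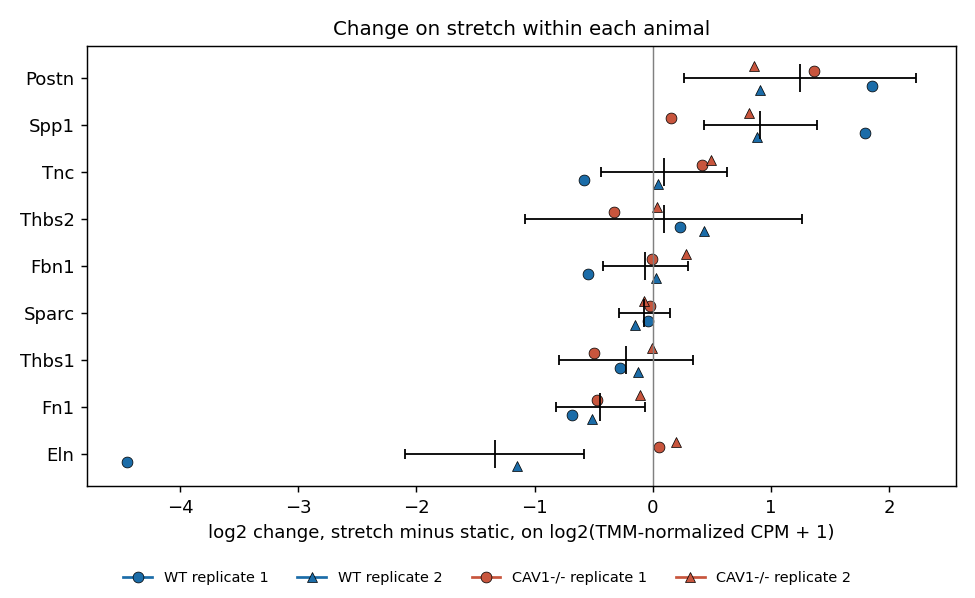
Log2 change on stretch within each animal for the 9 genes, on log2(TMM-normalized CPM + 1). Coloured symbols are the 4 animals (blue WT, red CAV1-/-, circle replicate 1, triangle replicate 2), the black bar is the average over both genotypes with its limma SE, Postn and Spp1 have all 4 animals above 0, and Eln has WT replicate 1 at −4.45 and both CAV1-/- animals near 0.

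Between genotypes, none of the 9 genes was called by limma, which called 10 genes (0.0732%) in static culture and 8 (0.0585%) on stretch. At an unadjusted p under 0.05, 2 of the 9 genes differed in static culture (Spp1 and Eln, against 8.17% of all genes) and 1 on stretch (Eln, against 6.26%). The groups did not overlap for 2 of the 9 genes in either condition, with Spp1 higher and Eln lower in CAV1-/- MCs, which compares with 36.9% of all genes in static culture (16.1% higher and 20.8% lower) and 30.5% on stretch (14.6% higher and 15.9% lower). The median log2 fold change of the 9 genes was 0.070 in static culture and 0.056 on stretch, against −0.013 and 0 for all genes. Animals of 1 group differed more in these genes than in most. The median absolute log2 difference between the replicates was 0.99 in WT static, 1.62 in WT stretch, 0.81 in CAV1-/- static and 1.23 in CAV1-/- stretch MCs for the 9 genes, and 0.21, 0.25, 0.29 and 0.28 for all genes. The 2 genotype comparisons draw their cultures from the same 4 animals and are not independent of each other. The limma fit counts the static and the stretched culture of an animal as independent. Yet their deviations from the group means correlated (r = 0.703 in WT and 0.850 in CAV1-/- MCs). The limma intervals and p-values between genotypes may therefore be too small.

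**Figure D5:**
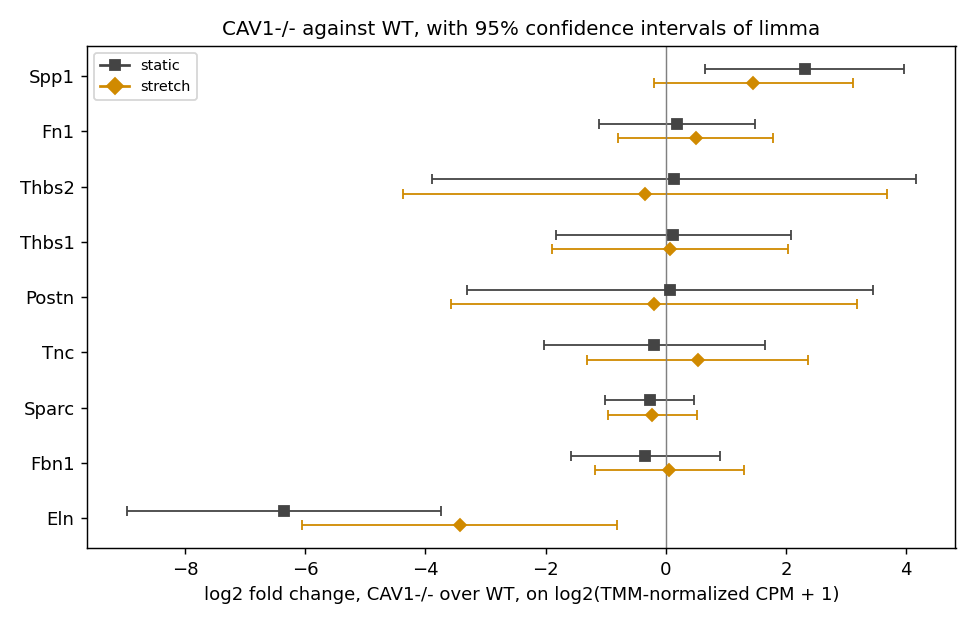
Log2 fold change of the 9 genes, CAV1-/- over WT, on log2(TMM-normalized CPM + 1), in static culture (grey squares) and on stretch (orange diamonds). Bars are 95% confidence intervals of limma for 2 against 2 cultures. The fit counts the static and the stretched culture of an animal as independent, so the bars may be too short. The intervals of Eln lie below 0 in both conditions and that of Spp1 lies above 0 in static culture, before adjustment over all genes, while the other genes span 0.

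Genes that act with these proteins were described by lists. Of 15 genes for fibronectin assembly and its receptors, none was called in any comparison, and the most positive difference without overlap in all 4 pairwise comparisons was that of Itgb3, the β3 subunit of integrins that bind fibronectin and osteopontin. Itgb3 was at 18.5 and 56.6 CPM in WT static, 58.2 and 121 CPM in WT stretch, 79.1 and 110 CPM in CAV1-/- static and 123 and 262 CPM in CAV1-/- stretch MCs. As with Spp1, it was higher on stretch in each animal and higher in CAV1-/- than in WT MCs in each condition. Its log2 fold change on stretch was 1.35 in WT and 0.94 in CAV1-/- MCs (SE 0.64, limma adjusted p = 1 for both), and that between genotypes was 1.49 in static culture (limma adjusted p = 0.637) and 1.08 on stretch (limma adjusted p = 0.947). The most negative difference on stretch without overlap was that of Sdc4, a syndecan that cooperates with integrins on fibronectin, with −0.54 in WT and −0.64 in CAV1-/- MCs (SE 0.18, limma adjusted p = 1 for both). Tgm2 fell more in both WT animals, but its WT groups overlapped. Vcl, the focal adhesion protein vinculin, had the most negative difference in CAV1-/- against WT static MCs, with −0.52 (limma adjusted p = 0.680).

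Of 20 elastic fibre genes, none was called either. Fbln5, a fibulin needed for elastic fibre assembly, was at 186 and 148 CPM in WT static, 143 and 125 CPM in WT stretch, 68.5 and 69.6 CPM in CAV1-/- static and 45.2 and 47.1 CPM in CAV1-/- stretch MCs. It had no overlap between genotypes and missed the threshold, with a log2 fold change of −1.25 in static culture (SE 0.14, limma adjusted p = 0.0667) and −1.52 on stretch (SE 0.14, limma adjusted p = 0.0548). As for Eln, the part of cell types in the level of Fbln5 was not tested. Efemp1, another fibulin, had the most negative difference on stretch, with −1.32 in WT and −1.49 in CAV1-/- MCs (limma adjusted p = 1 for both). In the list as a whole, 12 genes were lower and 8 higher in CAV1-/- static MCs, with a median of −0.16 against −0.013 for all genes. Emilin1, a glycoprotein of elastic fibres, had the most positive difference there among genes whose groups did not overlap, with 1.53 (limma adjusted p = 0.801). By the same rule Loxl1, a lysyl oxidase, had that on stretch in CAV1-/- MCs, with 0.32 (limma adjusted p = 1). Loxl4 rose more in both of these animals and Loxl2 only in replicate 2, but their groups overlapped.

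Of 18 other matricellular genes with values, 1 was called. Spock2, a secreted proteoglycan of the SPARC family, fell in CAV1-/- static MCs by 4.24 on the log2 scale (SE 0.34, limma adjusted p = 0.0361). Its values were 80.0 and 66.4 CPM in WT static and 2.97 and 2.88 CPM in CAV1-/- static MCs. On stretch they were 22.9 and 43.4 CPM in WT and 1.65 and 2.90 CPM in CAV1-/- MCs, a log2 fold change of −3.34 that was not called (limma adjusted p = 0.0624). All 15 mesothelial markers had a lower mean in CAV1-/- MCs in both conditions as well. The part of cell types in the level of Spock2 was not tested. Spock2 was also lower in stretched than in static WT cultures, with −1.18 (limma adjusted p = 1). Among genes whose groups did not overlap, Wisp1, a CCN family protein, had the most positive difference on stretch, with 0.71 in WT and 0.55 in CAV1-/- MCs (limma adjusted p = 1 for both). By the same rule Nov, another CCN protein at under 4 CPM, had the most negative difference on stretch in CAV1-/- MCs. Smoc2 rose more than Wisp1 in both CAV1-/- animals, but its groups overlapped. Tnn and Wisp2 had the most positive differences without overlap in CAV1-/- against WT MCs, in static culture and on stretch, with 0.96 (limma adjusted p = 0.602) and 0.75 (limma adjusted p = 0.981). Tnn was low, at 0 and 0.484 CPM in WT static and 1.65 and 1.13 CPM in CAV1-/- static MCs.

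Of 12 receptors of thrombospondins, osteopontin and SPARC, none was called. In CAV1-/- MCs 9 were higher in static culture and 11 on stretch, with medians of 0.54 and 0.58, against −0.013 and 0 for all genes. Cd36, a scavenger receptor that binds thrombospondin 1, was at 45.1 and 9.93 CPM in WT static, 45.6 and 15.95 CPM in WT stretch, 697 and 52.5 CPM in CAV1-/- static and 509 and 62.3 CPM in CAV1-/- stretch MCs. Its log2 fold change, CAV1-/- over WT, was 3.11 in static culture (SE 1.55, limma adjusted p = 0.709) and 2.68 on stretch (limma adjusted p = 0.939). The highest Cd36 values were those of CAV1-/- replicate 1, where the leukocyte sum was also highest. The part of leukocytes in the levels of Cd36 and of the other receptors was not tested. Of 12 TGF-β targets among matrix genes, none was called. Timp1, an inhibitor of metalloproteinases, had the most positive difference on stretch in WT (0.60, limma adjusted p = 1) and in CAV1-/- against WT static MCs (0.97, limma adjusted p = 0.579). Col3a1, a fibrillar collagen, had the most negative difference on stretch in WT (−0.94, limma adjusted p = 1). Among genes whose groups did not overlap, Lox, a crosslinking enzyme, had the most positive difference on stretch in CAV1-/- MCs (0.17, limma adjusted p = 1). Col5a1 rose more in both of these animals, but its groups overlapped. On stretch, Col5a1 (0.95, limma adjusted p = 0.745) and Timp3 (−0.52, limma adjusted p = 0.950) were the most positive and most negative differences in CAV1-/- against WT MCs, again among genes without overlap.

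For each of the 9 genes, the genes with the most similar pattern were taken as those with the smallest root mean square difference of the centred log2(CPM + 1) values over the 8 libraries, among 10788 genes. Spp1 was closest to Slc6a17, with a difference of 0.27 against its own spread of 1.22, then to Rasl12 and to Has2, a hyaluronan synthase, which was at 10.9 and 39.8 CPM in WT static and at 74.9 and 168 CPM in CAV1-/- stretch MCs. Postn was closest to Megf10 (0.26 against its own spread of 1.36), Ank and Ret. Eln was closest to Gm21451, an annotated unprocessed pseudogene on chromosome 14 whose reads may be shared with related sequences, with a difference of 0.39 against its own spread of 2.80. The next were Pdlim3 and Tcf21, a transcription factor of mesenchymal cells. Pdlim3 was at 30.5 and 64.7 CPM in WT static, 2.61 and 29.9 CPM in WT stretch and at most 0.728 CPM in CAV1-/- MCs. Thbs2 was closest to Cacng7, S1pr3 and Hgf, hepatocyte growth factor. Fn1 was closest to Acvr1b, an activin receptor, Tmeff2 and Sesn2, Tnc to Lrrc16a, Tbx3 and Pik3r3, and Thbs1 to Cap2, Nacad and Fmnl2. Sparc was closest to Pnkd, D2Wsu81e and Wdr45, and Fbn1 to Dennd2a, Ece1 and Wdr81. These likenesses rest on 8 libraries of 4 animals and are a description.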

How the data were processed

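RNAseq libraries of primary mouse peritoneal MCs (poly A+ RNA, not strand-marked) were sequenced by the authors. The authors removed adapters with cutadapt, quantified the reads with RSEM on GRCm38 transcripts and applied TMM scaling in edgeR. They deposited the resulting signal, TMM-normalized CPM, for 13687 genes. Within a library 100% of the deposited values were whole multiples of the value of 1 read (tolerance 0.01), from which the reads were recovered. Intervals and floors of 3 reads cover counting error only.

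Groups were taken from the labels. Tools were limma 3.58.1, edgeR 4.0.16 and DESeq2 1.42.0 in R 4.3.3. The main test was limma on log2(CPM + 1) with a mean for each of the 4 groups over all 8 libraries, with an intensity trend, no block and 4 residual degrees of freedom, for genes with at least 1 CPM in at least 2 libraries (22 genes removed). The quasi-likelihood test of edgeR, DESeq2 (both on recovered reads), pseudocounts of 0.1 and 5, no filter, a mean of at least 5, median-of-ratios scaling, a replicate block, eBayes without trend, only the 4 libraries of a comparison, and leaving out cultures were alternatives. The scripts were tested on simulated data. The static and the stretched culture of a replicate come from 1 animal by the labels, and their deviations from the group means correlated (r = 0.703 in WT and 0.850 in CAV1-/- MCs). Replicates are separate animals.

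Positions, exon lengths and overlaps are from GENCODE on GRCm38, where 13597 of 13687 identifiers were found. Named genes are the 9 genes, Cav1, called genes of each list or the most positive and most negative differences among genes whose groups did not overlap, the 3 genes nearest in pattern to each of the 9, and markers that moved with them. The 9 genes and the lists were chosen with earlier results of these data known. Promoters of Fn1, Thbs1 and Eln were not used here.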

Additional observations from a re-analysis of the deposited data

Results flagged for a closer look

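The stretch response of Eln was singled out because both WT animals had lower values on stretch and both CAV1-/- animals had higher ones. The genotype by stretch interaction was 2.92 on the log2(CPM + 1) scale (limma adjusted p = 1), so the difference did not pass the test. The CAV1-/- values rest on 2 to 7 reads per library, close to the floor of 3 reads, where no direction could be measured (ratio 1.46, counting interval 0.489 to 5.24) and a lower value on stretch could hardly have been seen.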

How the results depend on the processing

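The 54 log2 fold changes (9 genes in 6 comparisons) were run under 9 or 10 other fits and 12 with cultures or animals left out. Those of Eln in all 6 comparisons, and of Spp1 in all but stretch in CAV1-/- MCs, kept their direction under every alternative run for them. The same held for Sparc between genotypes in both conditions and for Fn1 and Postn on average over stretch. It also held for Fn1 on stretch in WT and for Postn on stretch in CAV1-/- MCs. Leaving out both cultures of an animal or 1 culture leaves a group with 1 culture, which is assumed to vary like the others. The depth of the libraries limited Eln in CAV1-/- MCs, where it rests on 2 to 7 reads. Median-of-ratios scaling moved the median of all genes by less than 0.1.

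The replicate block is the animal for the stretch comparisons and only a shared number for the genotype comparisons, where same-numbered cultures deviated together as well (r = 0.522 in static culture and 0.484 on stretch). With the replicate block, the counts of genes called became 1 for stretch in CAV1-/- MCs, 201 for the average over stretch, 246 between genotypes in static culture and 110 on stretch. In that fit Postn was called on average over stretch (adjusted p = 0.0327), and Spp1 (adjusted p = 0.0251) and Eln (adjusted p = 0.0398) were called between genotypes in static culture. It changed no other call of the 9 genes.

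DESeq2 called 3 genes for stretch in WT, 7 in CAV1-/- MCs, 39 on average, and 309 and 238 between genotypes in static culture and on stretch. In static culture the count between genotypes was 6 without the trend and 2 with edgeR, and with only the 4 libraries of a comparison it was 0 in both conditions. The cause was not tested. Some directions turned between genotypes in static culture, with edgeR for Thbs1 (−0.0019), Thbs2 (−0.72) and Postn (−0.88), and with DESeq2 for Thbs2 (−0.70) and Postn (−0.86). On stretch they turned for Thbs1 (−0.0092 with edgeR, −0.0015 with DESeq2) and Fbn1 (−0.12 and −0.11), and in the interaction for Postn (0.072 and 0.061). These tools average reads rather than logarithms within a group.

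With cultures left out, 0 to 8 genes were called between genotypes in static culture and 0 to 7 on stretch. The log2 fold changes whose direction turned in at least 1 of these 12 fits had the following lowest and highest values. For stretch in WT they were Tnc −1.08 to 0.54, Thbs1 −1.02 to 0.63, Thbs2 −1.64 to 2.30, Sparc −0.24 to 0.050, Postn −0.52 to 3.29 and Fbn1 −0.996 to 0.47. For stretch in CAV1-/- MCs they were Fn1 −0.91 to 0.33, Tnc −0.19 to 1.10, Thbs1 −0.90 to 0.40, Thbs2 −0.93 to 0.64, Sparc −0.28 to 0.18, Spp1 −0.22 to 1.19 and Fbn1 −0.0070 to 0.28. Between genotypes in static culture they were Fn1 −0.25 to 0.62, Tnc −0.80 to 0.41, Thbs1 −0.62 to 0.88, Thbs2 −1.74 to 2.00, Postn −1.83 to 1.97 and Fbn1 −0.79 to 0.11. Between genotypes on stretch they were Fn1 −0.12 to 1.11, Tnc −0.28 to 1.34, Thbs1 −0.75 to 0.90, Thbs2 −2.32 to 1.62, Postn −1.63 to 1.23 and Fbn1 −0.68 to 0.79. In the interaction they were Fn1 −0.31 to 0.92, Tnc −0.084 to 1.53, Thbs1 −0.88 to 0.77, Thbs2 −2.45 to 1.49, Sparc −0.19 to 0.28, Postn −2.17 to 1.63 and Fbn1 −0.34 to 1.13. On average over stretch they were Tnc −0.31 to 0.50, Thbs1 −0.64 to 0.19, Thbs2 −0.89 to 1.08, Sparc −0.19 to 0.044 and Fbn1 −0.43 to 0.31.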
